A study of Vulpes vulpes with 8 samples.

Results

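The immediate early response genes described here are FOS, FOSB, JUN, JUNB, JUND, EGR1, ATF3, IER2, IER3 and DUSP1, 10 genes followed in the gingiva of red foxes. Every probe set to which the array annotation gave one of these symbols and no other was taken, which gave 15 of the 43035 probe sets in the table, for 9 of the 10 genes. JUND had none under that rule and was not analysed here. A filter on dim probe sets kept 14 member probe sets of 8 genes among the 25716 probe sets tested, and FOSB was left out by it. The genes were chosen by their signals in these foxes, both how they varied together and how affected foxes differed from unaffected ones, so both are given below as descriptions with no test.

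The tissue was gingiva of Vulpes vulpes with hereditary hyperplastic gingivitis (HHG), in which the gum grows over the teeth and which runs in families, and of foxes without it, read on the Affymetrix Canine 2 array, whose probes were designed on dog transcripts. The 5 affected foxes were males 19, 55 and 107 and females 381 and 757. The 3 unaffected foxes were males 86 and 97 and female 402. Each array is 1 fox, named by its number in the labels, which give neither age nor strain and record HHG by its early signs at the tooth margin. Some pieces were taken in the pelting season just after euthanasia and the others in late spring from anaesthetised animals. The season of each fox is not given in the labels, so its part in any difference between foxes was not tested.

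Immediate early genes are switched on within minutes of a stimulus such as a growth factor, a wound or stress, from factors already present in the cell, and their transcripts are short-lived. FOS and JUN proteins pair through leucine zippers into AP-1, which binds and drives genes of proliferation, inflammation and matrix breakdown, and EGR1 and ATF3 are transcription factors of the same first wave. DUSP1 closes the loop by removing phosphate from the MAP kinases that start it. Squamous epithelium, fibroblasts, endothelium and leukocytes can all make these transcripts, so a level in a piece of gum is a sum over its cells, in which fewer cells of a type and less RNA per cell cannot be told apart.

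The arrays were on 1 scale, with a mean signal after trimming 2% at each end of 150.0 on each. Median signal ran from 28.6 to 33.7. With 8 arrays precision is limited by their number, and a difference between affected and unaffected foxes had a median SE of 0.23 on the log2 scale. Markers of squamous epithelium, of which 9 of 14 had a probe set, had sums of 17959 to 37002 in affected foxes, against 12307 to 38646 in unaffected foxes. Those of fibroblasts (9 of 9) had sums of 10210 to 27479 in affected foxes, against 8223 to 30781 in unaffected foxes. Skeletal muscle markers were mostly dim, with 3 to 5 of 8 above background in a fox and MYH2 at background in all, and had sums of 283 to 1408 in affected foxes, against 241 to 266 in unaffected foxes, so the groups did not overlap. Fox 55 held the highest sum, of which TNNI2 made 1308. TNNI2 itself did overlap, at 198 in unaffected fox 402 against 173 and 153 in affected foxes 19 and 107. Of all single probe sets tested, 2.43% did not overlap between the groups. Of 3 salivary gland markers 1 or 2 were above background and BPIFA2 was at background in every fox. The 8 foxes fell into sets of 4 by the control probe set for the 5′ end of the actin transcript, a sign of how long the labelled RNA was: it read 7831 to 8868 in affected foxes 107 and 757 and unaffected foxes 86 and 97, and 1354 to 2336 in affected foxes 19, 55 and 381 and unaffected fox 402. The 3′ actin control of the same series split the same way, at 12688 to 14956 against 7585 to 9722. Another 3′ actin control overlapped, at 6584 to 8541 against 6266 to 8254. Both sets hold foxes of both kinds, so a difference can also be read within a set. In the low set, fox 402 is the only unaffected fox, and it is also the only unaffected female.

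FOS, which forms stable AP-1 dimers with JUN proteins, showed the widest range among the members. Its brighter probe set read 1898 in fox 19, 639 in fox 55, 2762 in fox 107, 705 in fox 381 and 3202 in fox 757, the affected foxes, against 733 in fox 86, 669 in fox 97 and 268 in fox 402, the unaffected ones. Affected foxes 757, 107 and 19 lay above every unaffected fox, and affected foxes 55 and 381 lay among the unaffected ones, so the groups overlapped. The mean was 1841 ± 1166 (SD, n = 5) in affected foxes, against 557 ± 252 (SD, n = 3) in unaffected ones. On the log2(signal + 16) scale, used for every difference here, affected minus unaffected was 1.53 ± 0.58 (SE from limma's fit across all probe sets), 2.89-fold.

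The other FOS probe set gave the foxes nearly the same order, with a Pearson correlation of 0.98 and a Spearman correlation of 0.95 with the first over the 8 foxes. It read 279, 79.6, 338, 90.0 and 394 in affected foxes 19, 55, 107, 381 and 757, against 81.9, 76.4 and 50.5 in unaffected foxes 86, 97 and 402. Here 4 of 5 affected foxes read above every unaffected fox, with fox 55 just below fox 86. The difference was 1.33 ± 0.49.

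The FOS difference had the same sign within both actin sets and within both sexes. Among foxes of high 5′ actin, affected minus unaffected was 2.06, and among those of low 5′ actin it was 1.77, each affected fox reading above each unaffected fox of its own set. Within males it was 1.08 (3 affected, 2 unaffected) and within females 2.42, where fox 402 is the only unaffected female. Fox 402, the lowest of all in FOS, is also the only unaffected fox of low 5′ actin. The values within the low set and within females thus share their unaffected fox. With each fox left out in turn the FOS difference ran from 1.08, without unaffected fox 402, to 1.83, without affected fox 55. FOS nonetheless varied among the affected foxes, with an SD of 1.08 on the log2 scale.

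**Figure D1:**
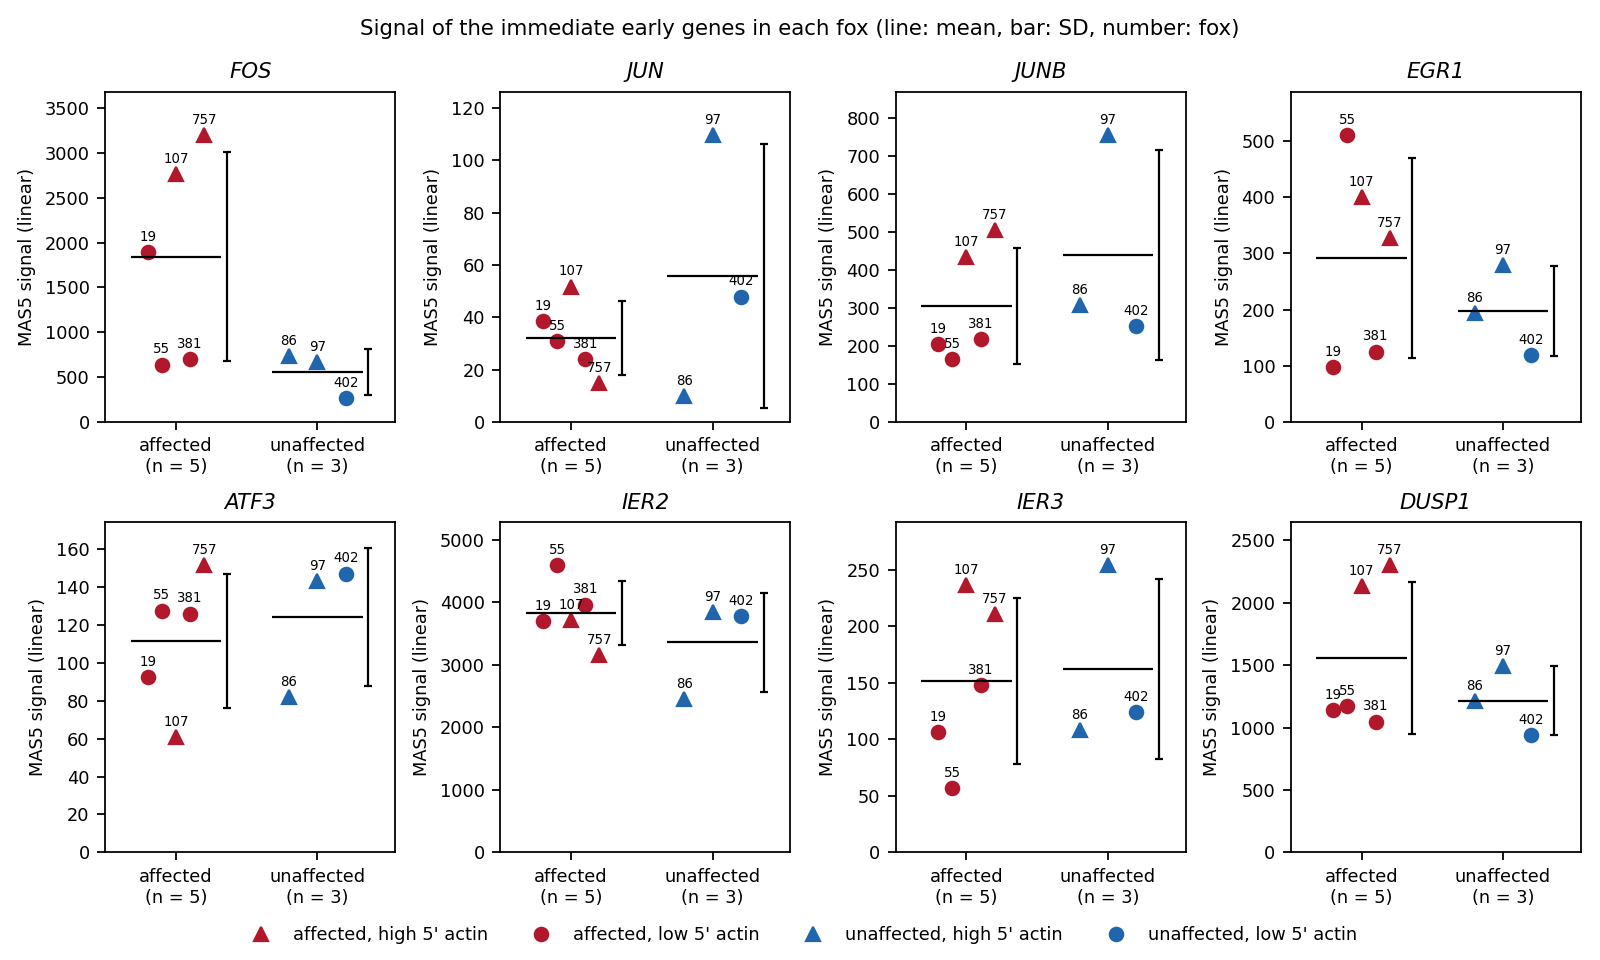
MAS5 signal (linear, from 0) of the brightest probe set of each of 8 immediate early genes in 5 affected and 3 unaffected foxes, each point a fox marked with its number, with the group mean (line), the SD (bar) and the 5′ actin set (triangle high, circle low). FOS reads 1898 to 3202 in affected foxes 19, 107 and 757 and 639 and 705 in affected foxes 55 and 381, against 268 to 733 in unaffected foxes, while for JUN and JUNB the highest fox is unaffected fox 97.

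FOSB, a FOS relative that also pairs with JUN proteins, was not measured above background in any fox. Its single probe set read 1.03 to 1.90 in affected foxes, against 0.90 to 2.15 in unaffected foxes, where background, the 95th percentile of 42 bacterial control probe sets, ran from 7.42 to 16.6. No level or difference can be given for it.

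JUN, the founding partner of FOS in AP-1, was dim and did not follow FOS. Its probe set read 38.6, 30.9, 51.7, 24.0 and 15.0 in affected foxes 19, 55, 107, 381 and 757, against 9.80, 109.8 and 47.9 in unaffected foxes 86, 97 and 402. The highest and the lowest fox were both unaffected, and the value of fox 86 lay below that array's background. The mean was 32.1 ± 14.0 (SD, n = 5) in affected foxes, against 55.8 ± 50.4 (SD, n = 3) in unaffected ones, a difference of -0.35 ± 0.45 that read -0.95 without fox 86 and 0.19 without fox 97.

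JUNB, a JUN relative that in mice can restrain JUN and shapes epidermal inflammation, read higher on average in unaffected foxes. Signal was 205, 166, 434, 219 and 504 in affected foxes 19, 55, 107, 381 and 757, against 307, 756 and 253 in unaffected foxes 86, 97 and 402. Unaffected fox 97 was the highest, and affected foxes 757 and 107 came next. The mean was 306 ± 153 in affected and 439 ± 276 in unaffected foxes, a difference of -0.47 ± 0.43 that was -0.0039 without fox 97. It was -0.93 within males and 0.38 within females.

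JUNB also split with the actin control. All 4 foxes of high 5′ actin, at 307 to 756, lay above all 4 of low 5′ actin, at 166 to 253, a mean gap of 1.13 on the log2 scale. Within the high set the difference between affected and unaffected foxes was -0.046, and within the low set -0.35. The part of RNA length in the JUNB values was not tested.

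EGR1, a zinc finger factor of growth and wound responses, had a pair of probe sets that gave opposite signs. The brighter one read 98.1, 511, 401, 125 and 327 in affected foxes 19, 55, 107, 381 and 757, against 193, 279.9 and 119.6 in unaffected foxes 86, 97 and 402. Affected fox 55, the fox with the high TNNI2 signal, was the highest and affected fox 19 the lowest, so the affected foxes spanned the whole range. The part of muscle was not tested, here or for other genes highest in fox 55. The means were 292 ± 178 in affected and 198 ± 80.2 in unaffected foxes, a difference of 0.36 ± 0.51, from 0.070 without fox 402 to 0.66 without fox 19.

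The dimmer EGR1 probe set read 17.7 to 95.6 in affected foxes, against 28.7 to 100.1 in unaffected foxes, a difference of -0.18 ± 0.44, or 0.20 without fox 97. Unaffected fox 97 was its highest fox and affected fox 107 the next. The pair correlated at a Pearson r of 0.78 and a Spearman rho of 0.71 over the 8 foxes. Fox 55 was where they parted most: it was first on the bright probe set and, at 47.8, below foxes 97, 107 and 757 on the dim one.

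ATF3, a stress-induced factor that often represses its targets, varied less than FOS, JUN, JUNB or EGR1. Signal was 92.5, 128, 60.7, 126 and 152 in affected foxes 19, 55, 107, 381 and 757, against 82.1, 143 and 147 in unaffected foxes 86, 97 and 402. Fox 107, next to the top in FOS, was the lowest here, and fox 757, the top in FOS, was the highest. The difference was -0.15 ± 0.28, and 0.023 without fox 107.

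IER2, a small nuclear protein of the early response, was the steadiest member, with an SD over the 8 foxes of 0.27 on the log2 scale. Its brighter probe set read 3698, 4590.1, 3717, 3961 and 3159.6 in affected foxes 19, 55, 107, 381 and 757, against 2445, 3839 and 3783 in unaffected foxes 86, 97 and 402. Unaffected fox 86 was the lowest and affected fox 55, high in TNNI2, the highest. The difference was 0.21 ± 0.21, and -0.0051 without fox 86, and that of its dimmer probe set was 0.19 ± 0.21.

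IER3, which protects cells from death signals downstream of ERK and NF-kappaB, was read by probe sets that did not follow each other, with a Pearson r of 0.12 and a Spearman rho of 0.31. The first, with the higher mean signal over the 8 foxes, read 107, 56.5, 236, 148 and 211 in affected foxes 19, 55, 107, 381 and 757, against 108, 254 and 124 in unaffected foxes 86, 97 and 402, a difference of -0.13 ± 0.42, from -0.35 without unaffected fox 86 to 0.21 without unaffected fox 97. The second read 69.2, 218, 226, 126 and 172 in the same affected foxes, against 99.3, 115 and 77.9 in the unaffected ones, a difference of 0.57 ± 0.33. On the second, 4 of 5 affected foxes lay above every unaffected fox and fox 19 lay below them all, and on the first the highest fox was unaffected fox 97. Fox 55 was lowest on the first and next to highest on the second, so no single direction can be given for IER3.

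DUSP1, the phosphatase that switches off ERK, p38 and JNK, had means a little higher in affected foxes on all 3 of its probe sets. The brightest read 1137, 1172, 2135, 1048 and 2302 in affected foxes 19, 55, 107, 381 and 757, against 1211, 1492 and 943 in unaffected foxes 86, 97 and 402. Affected foxes 757 and 107 stood above the other 6 foxes, which lay between 943 and 1492. The means were 1559 ± 607 (SD, n = 5) in affected foxes, against 1216 ± 275 (SD, n = 3) in unaffected ones, a difference of 0.30 ± 0.31. It was 0.13 without unaffected fox 402, 0.14 without affected fox 757, 0.16 without affected fox 107 and 0.45 without unaffected fox 97, and 0.075 within males and 0.71 within females.

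The other DUSP1 probe sets differed by 0.18 ± 0.44, or -0.077 without unaffected fox 402, and by 0.34 ± 0.34, with -0.27 and -0.016 within males, and the 3 correlated pairwise at a Pearson r of 0.95 to 0.97. On each of them every fox of high 5′ actin read above every fox of low 5′ actin, as for JUNB, so that 4 of the 14 member probe sets showed this, against 5.29% of all probe sets tested. The reverse, every fox of the high set below every fox of the low set, was shown by 0 of the 14, against 4.53% of all. The gap on the DUSP1 probe sets was a mean of 0.68, 1.10 and 0.75 on the log2 scale. For the brightest, affected minus unaffected was 0.71 within the high set and 0.24 within the low set. As for JUNB, the part of RNA length was not tested.

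Across the members, 9 of the 14 probe sets kept had the higher mean in affected foxes and 5 the lower. Over all probe sets tested, 11173 (43.4%) had the higher mean in affected foxes. With 1 probe set per gene the members split evenly, 4 higher (FOS, EGR1, IER2 and DUSP1) and 4 lower (JUN, JUNB, ATF3 and IER3), with a median difference of 0.037 against -0.027 over the 10832 genes tested. A fold of at least 2 was reached only by the FOS probe sets, and by 105 (0.408%) of all probe sets. No member probe set separated the groups completely, which 624 (2.43%) of all probe sets did. These counts are given with the background beside them and read for nothing, since the contrast was used to choose the genes.

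In limma's test over all 25716 probe sets, 0 (0%) read higher and 0 (0%) lower in affected foxes at an adjusted p under 0.05, and 690 (2.68%) had an unadjusted p under 0.05. The smallest adjusted p was 0.816.

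**Figure D2:**
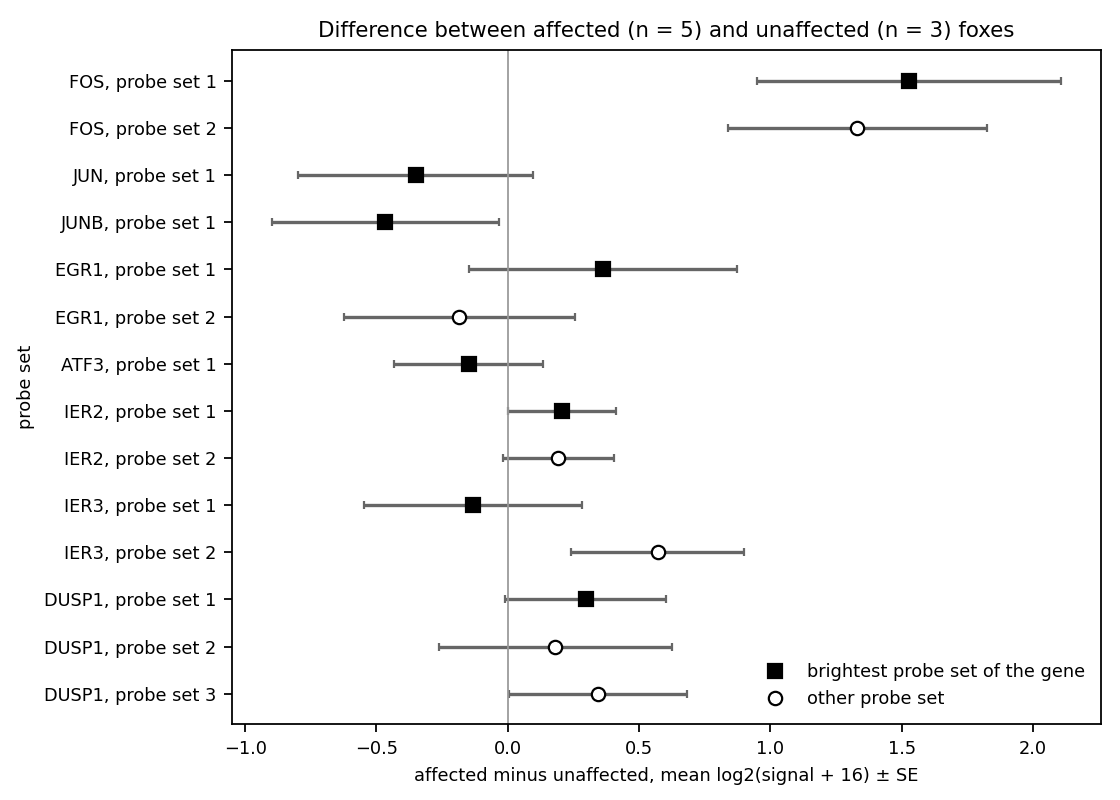
Difference between affected (n = 5) and unaffected (n = 3) foxes in mean log2(signal + 16) for the 14 probe sets kept, with its SE as the bar, squares for the brightest probe set of a gene and open circles for the others. Both FOS probe sets lie to the right, at 1.53 and 1.33, the EGR1 and IER3 probe sets lie on both sides of 0, and JUN and JUNB lie to the left.

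The members did not move as a block over the 8 foxes. Of the 28 pairs of 8 genes, 19 had a Pearson r above 0, the median was 0.14 and the range -0.43 to 0.88. All are over 8 arrays that share 1 scaling and a split in the 5′ actin control. The median Spearman rho was 0.19. With each gene centred on its mean in affected and in unaffected foxes the median r was 0.13, and centred on its mean in each actin set, a step chosen after seeing the data, 0.16. Without foxes 107 and 757, farthest from the median in FOS, it was 0.24.

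FOS and DUSP1 were the pair with FOS that kept together best. Their r was 0.81 and rho 0.69, and r was 0.84 within the HHG groups and 0.81 within the actin sets. Without foxes 107 and 757 it was 0.34, so much of it rested on those foxes. The second FOS probe set gave 0.76 with DUSP1, and the other DUSP1 probe sets gave 0.73 and 0.82 with FOS.

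With the JUN proteins, its partners in AP-1, FOS had lower coefficients than with DUSP1. Its r was -0.19 with JUN and 0.31 with JUNB, 0.30 with EGR1, 0.41 with IER3, -0.19 with IER2 and -0.43 with ATF3. Centred within the HHG groups the r of FOS with JUNB was 0.75, centred within the actin sets -0.18, and without foxes 107 and 757 -0.13. With IER3 these were 0.64, 0.15 and -0.083. FOS and IER2 had a rho of -0.67 and, centred within the HHG groups, an r of -0.66. Centred within the actin sets their r was 0.12, and without foxes 107 and 757 it was -0.094. The dimmer IER2 probe set gave an r of 0.037 and a rho of -0.17 with FOS. JUN and JUNB correlated at 0.41, and at -0.18 without foxes 86 and 97.

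The highest coefficient was that of JUNB with the brighter IER3 probe set, with r and rho both 0.88 and r 0.84 without foxes 97 and 757. The other IER3 probe set gave 0.16 with JUNB, so the pairing holds for only 1 of its readings. JUNB and DUSP1 correlated at 0.69, and at 0.095 once each was centred within the actin sets. EGR1 and DUSP1 gave 0.64, or 0.95 without foxes 19 and 55, and the dimmer EGR1 probe set gave 0.79 with DUSP1 and 0.81 with JUNB.

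**Figure D3:**
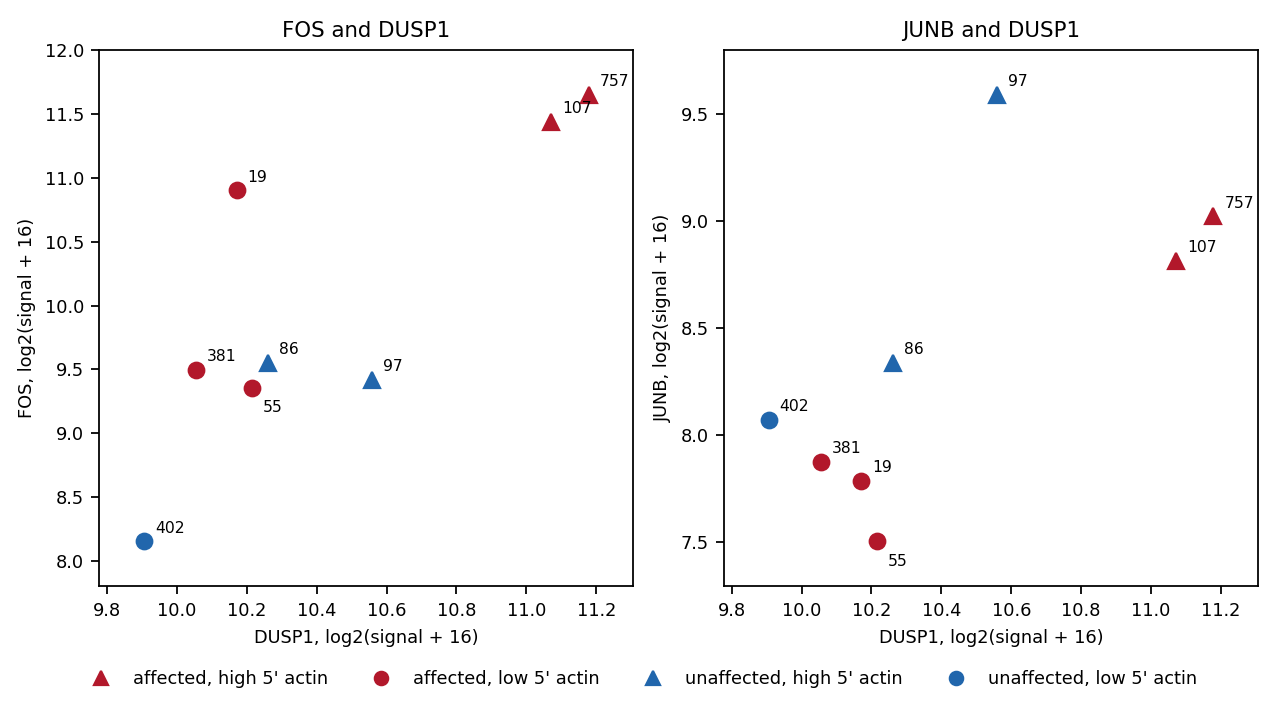
FOS (left panel) and JUNB (right panel) against DUSP1, each as log2(signal + 16), with 1 point per fox, coloured by HHG status and shaped by 5′ actin set. Foxes 107 and 757 stand at the upper right for FOS and DUSP1, and for JUNB and DUSP1 the foxes of high 5′ actin, triangles, lie above those of low 5′ actin.

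Some foxes read high in most of the genes. Affected foxes 107 and 757 and unaffected fox 97 were each among the 3 highest in 6 of 8 genes, and unaffected fox 86 in 0 of 8. Averaged over the 8 genes, each centred on its mean over foxes, the level was 0.47 in fox 107, 0.45 in fox 757 and 0.45 in fox 97 on the log2 scale. It was -0.18 in fox 19, -0.16 in fox 55 and -0.27 in fox 381, affected foxes, and -0.39 in fox 86 and -0.36 in fox 402, unaffected foxes. High 5′ actin was shared by foxes 107, 757 and 97 and also by fox 86, the lowest of all.

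What set the high foxes apart from each other was which genes were high. On each gene's brightest probe set, fox 757 was the highest in FOS, ATF3 and DUSP1 and fox 97 in JUN, JUNB and IER3. Fox 55, at -0.16 on average, was the highest in EGR1 and IER2. On the other probe sets of EGR1, IER2 and IER3 the highest were fox 97 (100.1), fox 381 (483) and fox 107 (226). In FOS fox 97 ranked 6 of 8. Fox 19 ranked 3 in FOS but was among the 3 lowest in 6 of the 8 genes.

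**Figure D4:**
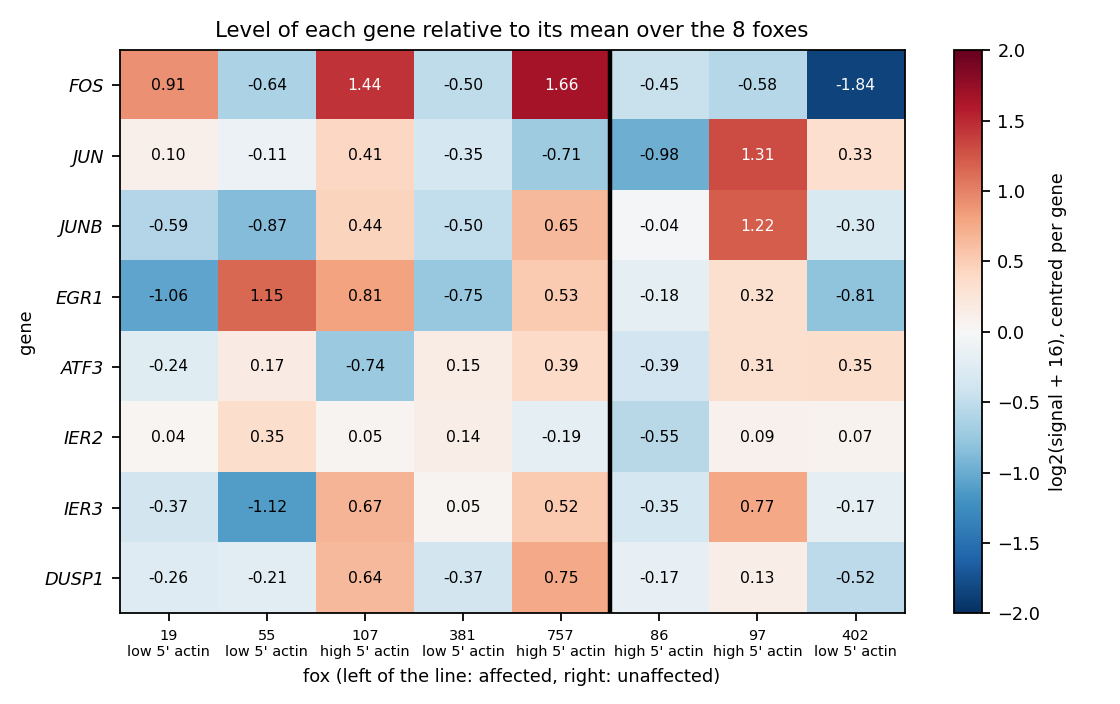
Level of 8 immediate early genes in each fox as log2(signal + 16) minus the gene's mean over the 8 foxes, red above and blue below that mean, with affected foxes left of the line and unaffected foxes right of it. Foxes 107, 757 and 97 are red in most rows, but FOS, at 1.66 in fox 757, is blue in unaffected fox 97 at -0.58.

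Spread over the foxes differed by gene. The SD of log2(signal + 16) over all 8 foxes was 1.21 for FOS, larger than in 99.2% of the probe sets tested, 0.82 for EGR1, larger than in 96.8%, and 0.72 for JUN and 0.71 for JUNB. It was 0.64 and 0.57 for the IER3 probe sets, 0.47 for the brightest DUSP1 probe set, 0.69 and 0.53 for the other DUSP1 probe sets, and 0.41 for ATF3. IER2, at 0.27, lay below the median of 0.32 over all probe sets tested.

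Sex was not used to choose the genes, and no member was called for it. In limma with a term for HHG, 0 of 14 member probe sets had an adjusted p under 0.05 between females and males, and 0 of 14 an unadjusted one. Over all 25716 probe sets, 1 (0.00389%) was called, annotated as EIF2S3 (female minus male -5.55, adjusted p in limma 3.67e-06), and 588 (2.29%) had an unadjusted p under 0.05. EIF2S3, an initiation factor subunit with copies on X and Y in many mammals, was named after its value was seen. Among the members ATF3 came nearest, with 142 ± 13.6 in females (SD, n = 3) and 101 ± 33.7 in males (SD, n = 5). Female minus male, allowing for HHG, was 0.48 ± 0.26 (SE), with an unadjusted p in limma of 0.0906 and an adjusted p of 0.9999. FOS gave -0.47 ± 0.60 and EGR1 -0.58 ± 0.51.

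The difference between affected and unaffected foxes was also set against sex as an interaction in limma. No member was called, nor was any of the 25716 probe sets (0%), of which 632 (2.46%) had an unadjusted p under 0.05, and the smallest unadjusted p among the members was 0.189, with an adjusted p of 0.9999. Only 1 unaffected female entered that test.

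Among the cell type marker lists, FOS followed those of stroma most closely. Over the 8 foxes it had an r of 0.66 with the mean log2 level of the 7 smooth muscle and pericyte markers, which summed to 656 to 1153 in affected foxes, against 425 to 1564 in unaffected foxes. With the 9 fibroblast markers the r was 0.56, with the 11 leukocyte markers 0.38, with the 9 endothelial ones 0.18 and with the 9 epithelial ones 0.064. Unaffected fox 86 had the highest sum of fibroblast markers, 30781, and of smooth muscle markers, 1564, with FOS at 733. Single leukocyte markers ran from an r of -0.066 for S100A8 to 0.80 for CD163, the highest of any single marker. The best fibroblast marker, COL1A1, gave 0.64 and the best smooth muscle marker, TAGLN, 0.63. Fibroblast marker sums were 14409 to 30781 in foxes of high 5′ actin, against 8223 to 19787 in those of low. The part of stroma, leukocytes or RNA length in the FOS values was not tested.

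Genes whose levels over the 8 foxes were most like FOS were sought among 10498 genes, whose median r with FOS was -0.019 and of which 3 reached 0.9. In order they were DIAPH3, a formin that builds actin filaments (r 0.97), TMPRSS11A, a membrane serine protease of squamous epithelium (0.93), RFX3, a factor of cilia genes (0.90), FAM20C, a secretory pathway kinase (0.88), TSKU, a secreted leucine-rich protein (0.88), and SNX3, a sorting nexin (0.87). Without foxes 107 and 757 the r of DIAPH3 was 0.92 and of SNX3 0.64. Their own differences between affected and unaffected foxes ran from 0.11 ± 0.15 for SNX3 to 0.41 ± 0.37 for TSKU, with 0.18 ± 0.16 for DIAPH3. DIAPH3 read 38.9, 31.2, 42.7, 32.3 and 42.7 in affected foxes 19, 55, 107, 381 and 757, against 31.6, 35.8 and 26.5 in unaffected foxes 86, 97 and 402, a much narrower range than that of FOS. DIAPH3 was dim, as were TMPRSS11A (23.3 to 58.8), RFX3 (13.6 to 37.0) and TSKU (4.09 to 48.4). TSKU lay below background in affected fox 55 and unaffected fox 402. A second SNX3 probe set gave an r of 0.87 with FOS.

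For the mean of the 8 members, 11 of the 10498 genes reached an r of 0.9. EVL, which extends actin filaments, led at 0.96, followed by KIAA0930 at 0.94, C7H18orf25 and HIP1R, an endocytic adaptor, at 0.93, and CAPN5, a calpain, and RETREG3, a receptor for autophagy of the endoplasmic reticulum, at 0.92. A second probe set of EVL gave a lower r, 0.72. One of C7H18orf25 gave -0.17, so the likeness of C7H18orf25 holds for only 1 reading of that gene. KIAA0930, HIP1R and CAPN5 were dim, at no more than 46.4 in any fox, and KIAA0930 lay just below background in unaffected fox 86. With 8 foxes and this many genes, high coefficients are a description of these arrays only.

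JDP2, a leucine zipper protein that pairs with JUN and represses AP-1 sites, is the next protein-coding gene to FOS in the VulVul3 fox assembly, with BATF, another AP-1 family protein, beyond it. JDP2 read 40.4, 30.8, 103, 30.8 and 51.1 in affected foxes 19, 55, 107, 381 and 757, against 38.0, 27.5 and 23.8 in unaffected foxes 86, 97 and 402. Its order over the foxes was close to that of FOS, with an r of 0.81 and a rho of 0.95, and an r of 0.87 without foxes 107 and 757. BATF gave 0.19 with FOS, and TMED10, the nearest named gene on the other side, 0.52. For the 9 members that the assembly's table lists, no other member was among the nearest 4 protein-coding genes.

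Further genes of the pathway were read from lists drawn up by role, with earlier results of these data known, and are given as how many had the higher mean in affected foxes. None of their genes passed limma's threshold over all probe sets (adjusted p of at least 0.9999 for each). In the list of other early response genes, 33 of 53 symbols were tested, with 17 higher, 16 lower, a median difference of 0.0011 and 4 with an unadjusted p under 0.05. Over all probe sets tested, 43.4% had the higher mean in affected foxes and 2.68% an unadjusted p under 0.05, and nothing particular to a list is read from its counts.

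Early genes with the higher mean in affected foxes were led by THBS1, a matrix glycoprotein, GADD45B, a stress sensor, and TRIB1, a pseudokinase. THBS1 averaged 329 ± 160 in affected and 162 ± 57.1 in unaffected foxes (0.87 ± 0.38), and its other probe sets gave 0.87 and -0.060. GADD45B averaged 787 ± 329 in affected and 431 ± 133 in unaffected foxes (0.79 ± 0.34). TRIB1 read 1166 to 1709 in affected foxes, against 884 to 1169 in unaffected foxes (0.52 ± 0.19), with an r of 0.74 with FOS, and its other probe sets gave 0.17 and 0.27. With the higher mean in unaffected foxes were ZFP36L2, an RNA-binding protein that marks transcripts for decay (-0.66 ± 0.26), CSRNP1, a nuclear protein (-0.55 ± 0.32, and -0.30 without affected fox 107, where it was below background), and MYC, a growth factor-induced transcription factor (-0.45 ± 0.35, and -0.018 without unaffected fox 97). The r with FOS was 0.21 for THBS1, -0.078 for GADD45B, -0.54 for ZFP36L2, -0.46 for CSRNP1 and 0.15 for MYC.

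The kinases and factors that switch these genes on had 22 of 31 symbols tested, 6 with the higher and 16 with the lower mean in affected foxes, with a median of -0.070 and 1 gene with an unadjusted p under 0.05, where all probe sets had 43.4% higher and 2.68% under that p. That gene was MRTFB, a coactivator of SRF, at 18.4 ± 5.56 in affected and 31.1 ± 3.98 in unaffected foxes (-0.46 ± 0.19), a level near background, and its other probe set gave -0.17. On the first probe set MRTFB did not overlap, at 9.71 to 23.8 in affected foxes, against 26.5 to 34.0 in unaffected foxes. Over all probe sets tested, 2.43% did not overlap. ELK1, which binds beside SRF at the FOS promoter, differed by -0.36 ± 0.25 and the ERK kinase MAP2K1 by -0.34 ± 0.21, with -0.20 for ELK1 without affected fox 55 and -0.22 for MAP2K1 without unaffected fox 402. The other MAP2K1 probe sets gave 0.12 and -0.38. MAP2K4, a JNK kinase, differed by 0.26 ± 0.19, CREB1 by 0.24 ± 0.19 and MAPK14, a p38 kinase, by 0.24 ± 0.18. The other probe sets gave 0.015 and -0.028 for MAP2K4 and 0.20, -0.021 and 0.066 for MAPK14, and CREB1 differed by 0.16 without unaffected fox 402 and 0.38 without unaffected fox 86. CREB1, which binds the FOS promoter's cAMP element, had an r of 0.82 with FOS over the 8 foxes. That was the highest of the 22 genes tested, of which ARAF, at -0.53, was the lowest. The part of CREB1 in the FOS values was not tested. The r with FOS was 0.36 for MAP2K4, 0.24 for ELK1, 0.17 for MAPK14, -0.23 for MAP2K1 and -0.40 for MRTFB.

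Other leucine zipper proteins that pair with FOS or JUN or bind their sites had 14 of 23 symbols tested, 10 with the higher and 4 with the lower mean in affected foxes, a median of 0.17 and 1 with an unadjusted p under 0.05, against 43.4% higher and 2.68% under that p over all probe sets. BACH1, a repressor of antioxidant genes, read 99.3 to 147 in affected foxes, against 57.3 to 91.4 in unaffected foxes, with no overlap (0.45 ± 0.20, and 0.28 without unaffected fox 86). ATF4 of this list did not overlap either, at 2471 to 3206 in affected foxes, against 2379 to 2463 in unaffected foxes. Over all probe sets tested, 2.43% did not overlap. JDP2 differed by 0.47 ± 0.30, or 0.24 without affected fox 107, and BATF by 0.40 ± 0.45, or 0.14 without unaffected fox 97 and 0.88 without unaffected fox 86. ATF2, a JUN partner, differed by -0.38 ± 0.25, NFE2L2, the antioxidant factor, by -0.29 ± 0.21 and NFE2L1 by -0.093 ± 0.18. Without unaffected fox 86 ATF2 differed by -0.19 and NFE2L1 by -0.0041, and without affected fox 55 NFE2L2 differed by -0.18. The other probe sets gave -0.48 for ATF2, -0.36 for NFE2L2 and -0.19 for NFE2L1.

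AP-1 targets had 21 of 29 symbols tested, 18 with the higher and 3 with the lower mean in affected foxes, a median of 0.24 and 2 with an unadjusted p under 0.05. That stands beside 43.4% higher and 2.68% under that p over all probe sets, and the list was drawn up with earlier results of these data known. MMP9, a gelatinase, read 71.0, 182, 55.3, 60.2 and 78.4 in affected foxes 19, 55, 107, 381 and 757, against 30.7, 15.2 and 33.7 in unaffected foxes 86, 97 and 402, so every affected fox was above every unaffected one (1.23 ± 0.33). Its highest fox was 55, which was low in FOS and high in the muscle marker TNNI2, and its r with FOS was 0.27. Complete separation of the groups was shown by 2.43% of all probe sets tested. CXCL8, which draws neutrophils, averaged 2901 ± 889 in affected and 1701 ± 955 in unaffected foxes (0.86 ± 0.38, or 0.45 without unaffected fox 97), with an r of 0.57 with FOS, and its other probe sets gave 1.04 and 1.11.

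ICAM1, which leukocytes bind, differed by 0.82 ± 0.54, with fox 55, the highest in TNNI2, alone at 3079.9 and the difference at 0.45 without it and 0.41 on the other probe set. Against these, MMP1, a collagenase, differed by -0.80 ± 0.77, with the highest value, 1222, in affected fox 19 and the lowest, 47.3, in affected fox 757, and at -0.34 without fox 757 and -1.42 without fox 19. The other MMP1 probe set gave -0.79. CD44, a hyaluronan receptor, differed by -0.61 ± 0.34, or by -0.30 without unaffected fox 97, with other probe sets at -0.53 and -0.69, and PLAU, the urokinase, by -0.25 ± 0.33, or by -0.0081 without unaffected fox 86. Over the 8 foxes MMP1, CD44 and PLAU had r values of -0.17, -0.19 and 0.29 with FOS. The targets named here were picked by their difference, not by r. Over all targets tested, r with FOS ran from -0.68 for CCND1 to 0.87 for CCL2, with ITGA5 at 0.75 and VEGFA at 0.71.

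Heat shock genes, a separate stress response, had 15 of 19 symbols tested, 11 with the higher and 4 with the lower mean in affected foxes, a median of 0.060 and 1 with an unadjusted p under 0.05, against 43.4% higher and 2.68% under that p over all probe sets. HSPB8, a small chaperone, averaged 876 ± 169 in affected and 578 ± 219 in unaffected foxes (0.65 ± 0.28, and 0.29 without unaffected fox 97), while other probe sets for it gave 0.10 and 0.045. DNAJB1, an HSP70 partner, differed by 0.30 ± 0.20 and HSF2, a heat shock factor, by 0.27 ± 0.22, with the other probe sets of DNAJB1 at 0.22 and -0.25 and those of HSF2 at -0.22 and -0.043. CRYAB, a small chaperone, ran from 52.5 in fox 19 to 3596 in fox 107, both affected, and its difference of -0.89 ± 1.39 was -0.053 without fox 19. HSPE1 differed by -0.19 ± 0.20 and DNAJB4 by -0.099 ± 0.18, with the other DNAJB4 probe set at -0.30. Leaving out 1 fox gave 0.20 for DNAJB1 (unaffected fox 97), 0.16 for HSF2 (affected fox 19), -0.072 for HSPE1 (unaffected fox 97) and -0.019 for DNAJB4 (unaffected fox 86).

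**Figure D5:**
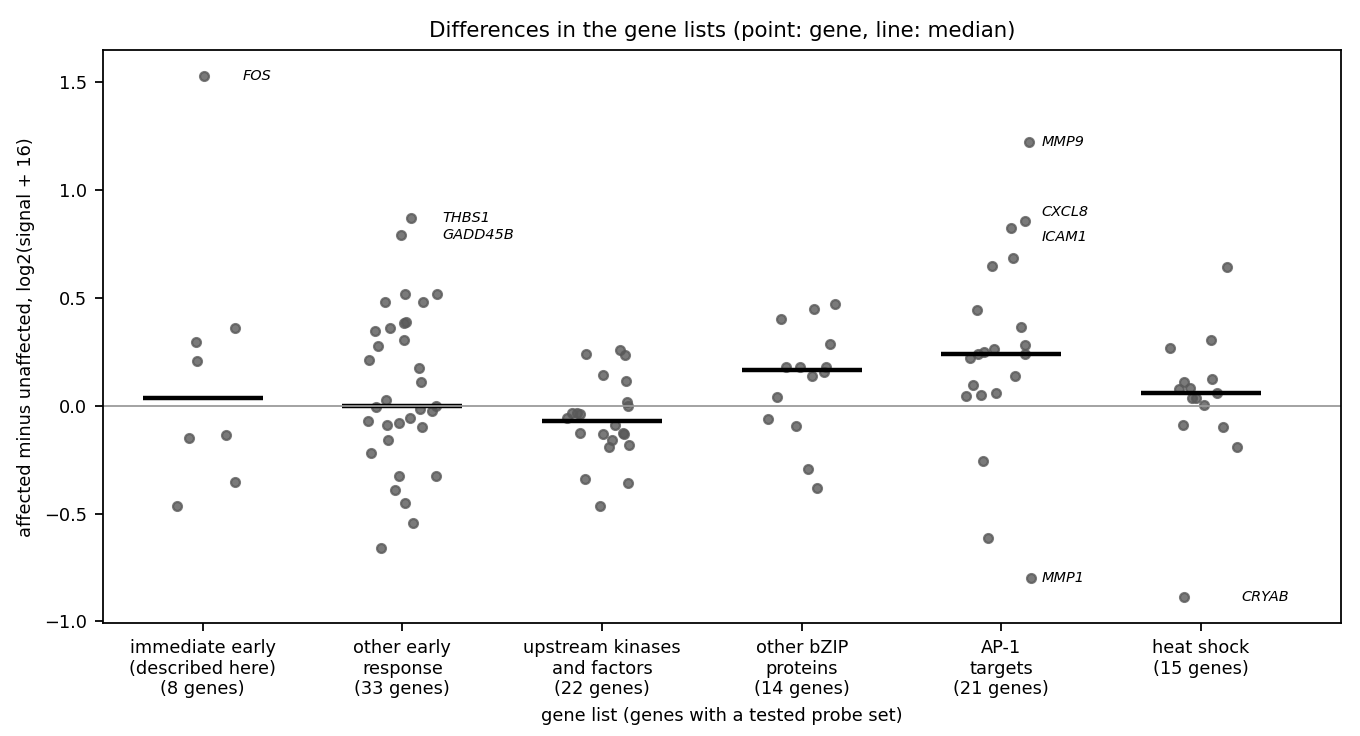
Difference between affected (n = 5) and unaffected (n = 3) foxes in mean log2(signal + 16) for each gene with a tested probe set, by gene list, with the median as a line. FOS, at 1.53, stands above the other 7 immediate early genes described here, and the AP-1 targets, with a median of 0.24, include MMP9 at 1.23 and MMP1 at -0.80.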

How the data were processed

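RNA of gingiva from 8 red foxes, 5 affected and 3 unaffected, was labelled with a 3′ kit and hybridised to 1 array each, per the labels' protocols. The values deposited are linear intensities, 1 for a probe set on an array, and are MAS5 signals per the submitters' processing notes. Which MAS5 version, background step, scaling target or detection calls were used is not given in the sources used here. Adding 16 before log2 shrinks differences of dim probe sets.

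Genes were named from probe sets with 1 symbol in the array's dated annotation (29254 of them; 439 had several). The 175 control probe sets, bacterial and reporter ones included, and the dimmest 40% of probe sets by mean were left out, and signals were not normalized again before log2(signal + 16). Differences and standard errors came from lmFit and eBayes of limma 3.58.1 (R 4.3.3), with p-values adjusted by Benjamini-Hochberg over all probe sets and called under 0.05. HHG was the only term in the main fit, while the sex comparison had terms for sex and HHG. The interaction test had terms for HHG, sex and their interaction. The fit was tested on simulated data. Correlations are over 8 foxes on the log2 scale, with no p. Where r is given again without 2 foxes, they are those farthest from the median.

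The members and the gene lists were chosen with earlier results of these data known. A gene is represented by its brightest probe set, and differences on other probe sets are given for the members and for the list genes named. From each list up to 3 genes per direction with the largest difference were named, and the 6 genes most like FOS and like the members' mean. Other list genes are given where their groups did not overlap or for their r with FOS. JDP2 and TMED10 are also given as neighbours of FOS, and sums of the marker lists where they varied with FOS. Arrays are of separate foxes, so p-values measure the spread between animals. No sequence of the members was used here, and gene order is from RefSeq's VulVul3 table, which lists all members but JUNB. Alternatives covered the offset (1 and 64), quantile normalization, the filter, sex as a covariate, males alone and the actin sets as a block. They also covered the mean of all probe sets of a gene and each fox left out in turn.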

Additional observations from a re-analysis of the deposited data

How the results depend on the processing

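The count of probe sets called between affected and unaffected foxes was 0 in limma under all 16 alternatives, with 472 to 1486 at an unadjusted p under 0.05. The 1 probe set called between females and males became 2 without affected fox 55 and was 1 under the other 14 alternatives, so that leaving out a fox gave 1 to 2. The FOS difference was above 0 under all 17 alternatives, from 1.08 to 1.94, the highest with the actin sets as a block. Those of EGR1 and DUSP1 were too (17 of 17 each). The alternatives used a gene's brightest probe set or the mean of all its probe sets, not each of the others alone. Alone, the dimmer EGR1 probe set differed by -0.18, and 1 DUSP1 probe set by -0.077 without unaffected fox 402. JUNB was below 0 under 16 of 16, JUN and ATF3 under 15 of 16, and IER3 under 13 of 17. IER2 was above 0 under 16 of 17. The median correlation over member pairs ran from 0.13 to 0.24 under 4 alternatives, of which centring on the actin sets was added after seeing the data. No paired analysis was possible because the groups share no fox number. The 3 unaffected foxes and signal near background, for FOSB and JUN above all, limit what can be read here.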
